A study of Mus musculus with 21 samples.

Results

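The 10 genes described here, Atf4, Atf3, Ddit3, Trib3, Chac1, Asns, Slc7a11, Slc7a5, Sesn2 and Psat1, belong to the programme that mouse cells switch on when amino acids run short. They were taken by gene symbol from RNA-Seq tables of 3 lincRNA knockout strains, and are 10 of the 46290 distinct gene entries that those tables hold. The set was chosen by what the genes are known to do together with 1 measured value, the higher Slc7a11 level of linc-Brn1b-/- telencephalon at E13.5. That comparison is therefore given as a description, and nothing is supported with it.

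ATF4 is a basic leucine zipper transcription factor whose messenger RNA is translated efficiently when the initiation factor eIF2 has been phosphorylated by one of its stress kinases. ATF4 pairs with C/EBP proteins, binds C/EBP-ATF response elements, and turns on genes for amino acid uptake, amino acid synthesis, glutathione supply and, under lasting stress, cell death. Because much of this control acts on translation, the Atf4 transcript level measured by RNA-Seq is not a measure of ATF4 protein. Slc7a11 encodes the cystine-glutamate exchanger xCT, which brings in cystine for glutathione, is also a target of the antioxidant factor NRF2, and is known in the brain from astrocytes and the meninges.

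RNA-Seq was done on whole brain at E18.5 of the Peril strain (named after Sox2 in the sample labels), on lung at E14.5 of the Fendrr strain (named after Foxf1a), and on the linc-Brn1b strain at 3 ages, as E13.5 telencephalon, E15.5 telencephalon and whole brain at P7. At each age, homozygous mutants (-/-), in which the lincRNA gene had been replaced by a lacZ reporter cassette with a neomycin selection cassette, were compared with wild-type (+/+) littermates. All strains came from targeted embryonic stem cells of mixed strain origin (line VGF1) and had been backcrossed once to C57BL/6J. The labels list 21 libraries in 10 groups, with 2 libraries in each group except 3 for linc-Brn1b-/- at E15.5, and how many of those 3 entered its value is not known. The tables give 1 FPKM value (read fragments scaled to transcript length and library size) for each group and none for single libraries, so the spread between animals and the depth behind a value are unknown, and none of the differences below was tested.

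The targeted lincRNA entry was listed at 0 in linc-Brn1b-/- samples at all 3 ages, against 0.799 to 2.498 FPKM in wild type. The entry linc-Cox4nb-4, which covers Fendrr, was at 38.4 FPKM in wild-type lung and 0.0450 FPKM in the mutant. For Peril, the entry linc-Atp11b-4 went in the opposite direction, at 4.65 FPKM in the libraries labelled knockout and at 0.0109 FPKM in wild-type brain. The paper reports, from RT-PCR on E18.5 brain, that Peril was lost in homozygous mutants. Which part of the Peril gene or of the inserted cassette this entry covers was not examined here. The order of the wild-type and knockout columns is also an assumption for this strain. In each of the 5 comparisons all 4 Y-linked genes examined were under 0.1 FPKM in 1 genotype only, the wild type for Peril and for linc-Brn1b at E15.5 and P7 and the mutant for Fendrr and for linc-Brn1b at E13.5, so sex and genotype cannot be told apart. The telencephalon marker Lhx2 was at 18.1 to 149 FPKM in the brain groups and at 0.138 and 0.140 FPKM in lung, where 6 lung epithelium markers summed to 1134 and 1143 FPKM. Summed over all entries, groups held between 381511 FPKM (linc-Brn1b-/- at E13.5) and 529246 FPKM (Fendrr-/- lung).

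Promoter sequence comes first, since ATF4 acts through a short element near the start of its target genes. A window of 300 bp, from 250 bases before to 50 bases after the RefSeq transcription start (build GRCm38.p6), was found for 9 of the 10 genes in 10 windows, 2 of them for Psat1. The C/EBP-ATF element, searched as TGATGNAA on both strands, was present in 5 of these 9 genes (Slc7a11, Asns, Atf3, Chac1 and Trib3), and in 3.97% of all 32851 mouse windows. The 5 stretches are shown because they carry the element that the group is named for, 5′ to 3′ in the direction of transcription, with the element in capitals in either orientation.
Slc7a11: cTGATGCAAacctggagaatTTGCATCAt
Asns: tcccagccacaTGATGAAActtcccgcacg
Atf3: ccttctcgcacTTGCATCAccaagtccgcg
Chac1: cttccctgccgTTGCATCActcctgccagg
Trib3: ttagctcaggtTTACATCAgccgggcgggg

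The Slc7a11 window held a pair of elements facing each other, at bases -66 to -59 and -47 to -40 before the start, while only 23 windows, 0.07% of the total, held 2 or more. By exact match to NCBIM37 (mm9) this stretch lies on the minus strand at chr3:50247574-50247602, directly upstream of the annotated gene (chr3:50168858-50247535, 12 exons). The Asns stretch lies on the minus strand at chr6:7643214-7643243, inside the first bases of the gene as annotated (chr6:7625169-7643254, 12 exons), with its element at -23 to -16 of the RefSeq start.

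The Atf3 stretch (chr1:193007304-193007333, minus strand) has its element at -110 to -103, upstream of the annotated gene (chr1:192994175-193007219). Chac1 has the element furthest upstream, at -193 to -186 (stretch at chr2:119176774-119176803, plus strand, gene at chr2:119176965-119180117). Trib3 is the only gene of the 5 with the element after the RefSeq start, at 15 to 22 (stretch at chr2:152169764-152169793, minus strand, gene at chr2:152163158-152169768). By the mm9 annotation this gene starts further downstream, and the element lies before that start. The cyclic AMP element TGACGTCA was in none of the 9 genes (1.79% of all windows), and the antioxidant element, searched as TGACNNNGC, was in Asns at -172 to -164 and in Sesn2 at -36 to -28 (12.4% of all windows). A match is a description of letters and no evidence of binding, and no match says only that these letters are not in these windows.

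**Figure D1:**
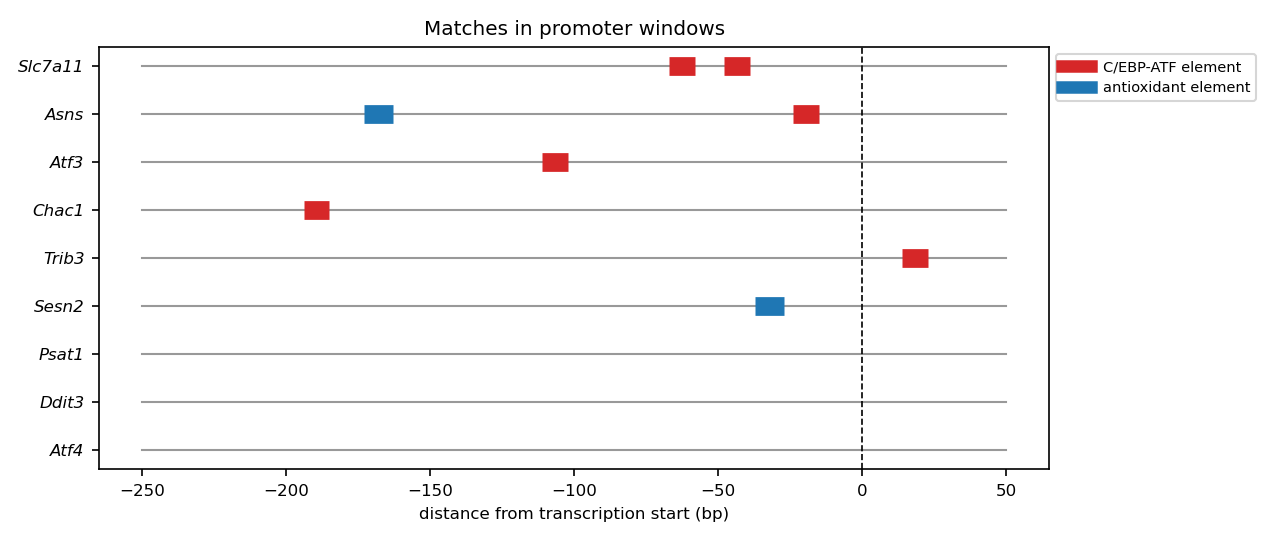
Matches to the C/EBP-ATF element (red) and the antioxidant element (blue) in the promoter windows of 9 genes, by distance in bp from the RefSeq transcription start (dashed line, windows from 250 bases before to 50 after). Slc7a11 has 2 C/EBP-ATF matches within 66 bases before its start, and Psat1, Ddit3 and Atf4 have none of either kind.

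The regulator itself was abundant and similar in both genotypes everywhere. Atf4 was at 62.9 FPKM in wild-type and 67.6 FPKM in linc-Brn1b-/- telencephalon at E13.5, at 66.4 and 65.2 FPKM at E15.5, and at 58.9 and 63.1 FPKM in brain at P7. In the separately normalised tables it was at 67.1 FPKM in Peril wild-type brain against 64.7 FPKM in the libraries labelled knockout, and at 99.96 and 93.8 FPKM in wild-type and Fendrr-/- lung. The 5 log2 ratios of mutant over wild type, computed throughout as log2 of FPKM + 0.1, lay between -0.09 and 0.10.

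The other basic leucine zipper factors of the group were within 1.5-fold between genotypes where they passed 1 FPKM. Ddit3, which encodes CHOP, a factor linked to stress-induced cell death, was at 11.4 and 11.5 FPKM at E13.5, 14.05 and 14.25 FPKM at E15.5, and 10.9 and 12.8 FPKM at P7 (wild type, then linc-Brn1b-/-). It was at 11.4 and 11.3 FPKM in Peril brain and 9.98 and 10.3 FPKM in Fendrr lung. P7 gave its largest difference, a log2 ratio of 0.23. Atf3, a factor induced in many kinds of stress, was under 1 FPKM in every brain group (0.313 to 0.556 FPKM) and reached 1.98 FPKM in wild-type and 2.34 FPKM in Fendrr-/- lung.

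Trib3, a pseudokinase that is induced by ATF4 and dampens it, was the lowest gene of the group in each of the 6 linc-Brn1b groups. Its values were 0.155 and 0.102 FPKM at E13.5, 0.121 and 0.0927 FPKM at E15.5, and 0.482 and 0.391 FPKM at P7 (wild type, then mutant). Peril brain had 0.509 and 0.575 FPKM and Fendrr lung 1.01 and 0.889 FPKM. Cuffdiff2 marked Trib3 as not tested at E13.5 and E15.5, and Chac1 and Slc7a11 as not tested in lung, which are the places where their levels were low.

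**Figure D2:**
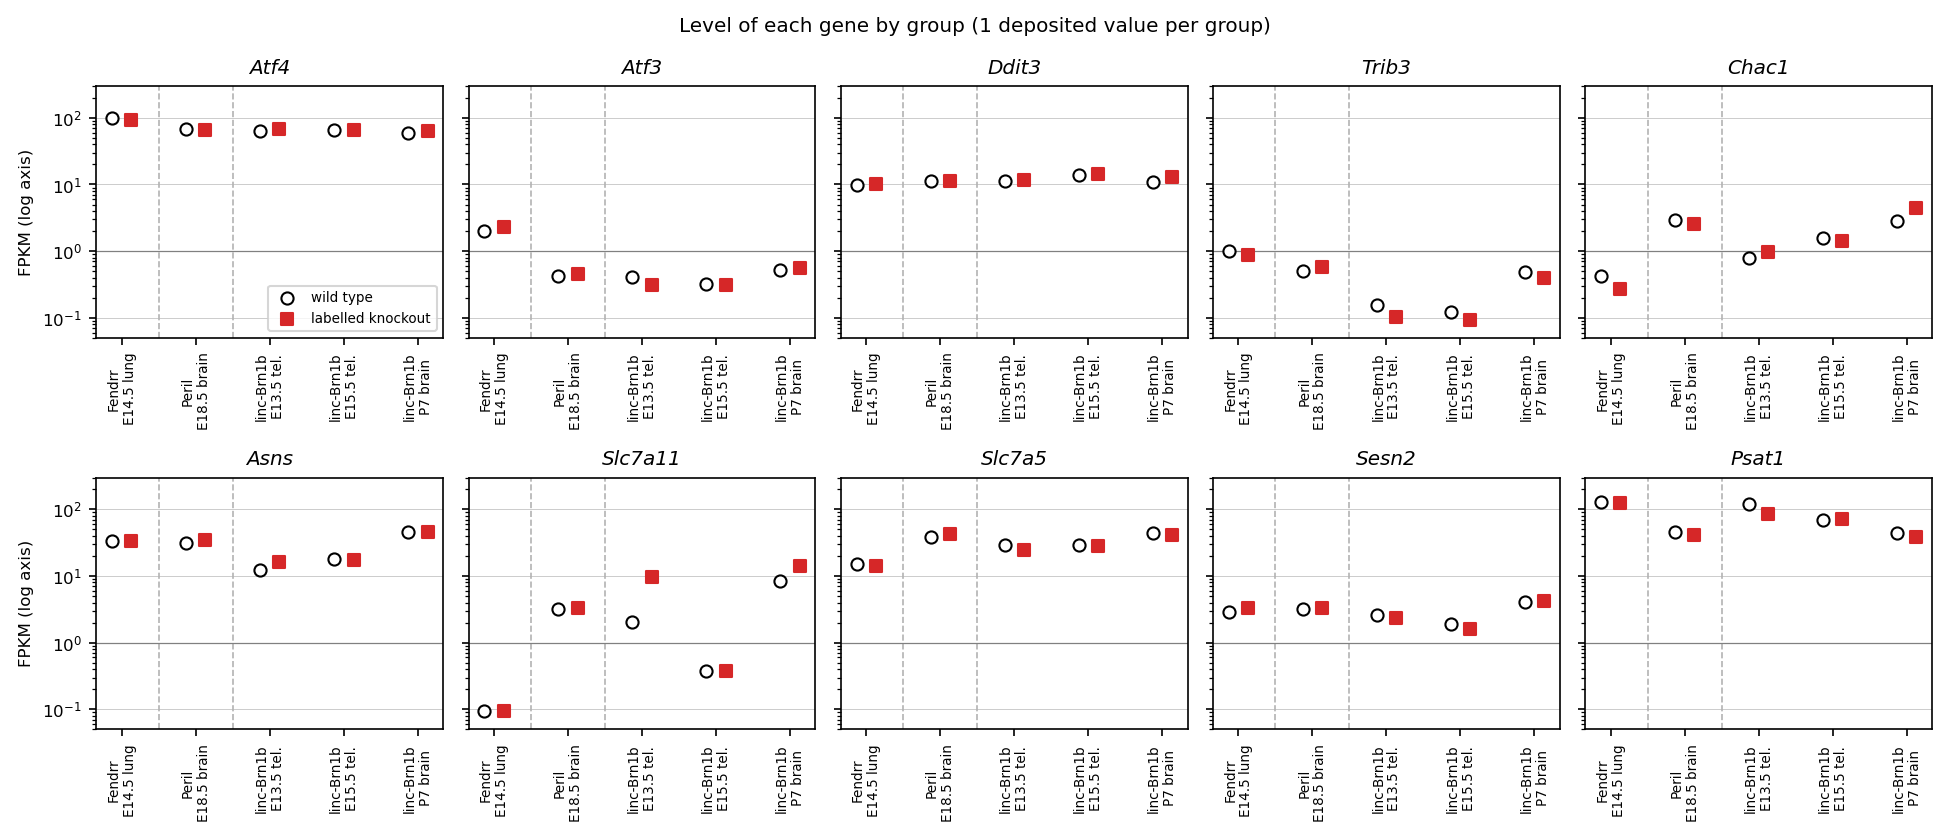
FPKM on a log axis of each of the 10 genes in the 10 groups, with 1 deposited value per group and no error bar (open circles, wild type, and red squares, libraries labelled knockout). Dashed lines separate tables that were normalised separately, and tel. stands for telencephalon. Circle and square nearly coincide in most panels, whereas Slc7a11 at E13.5 was at 2.02 FPKM in wild type and 9.68 FPKM in linc-Brn1b-/-.

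Slc7a11 was the gene with the widest range of levels and the one that differed most between genotypes. In wild-type samples of the linc-Brn1b strain it was at 2.02 FPKM at E13.5, 0.379 FPKM at E15.5 and 8.47 FPKM at P7. In linc-Brn1b-/- samples it was at 9.68 FPKM at E13.5, 0.381 FPKM at E15.5 and 14.4 FPKM at P7. The mutant was thus higher at E13.5 (4.79 times wild type, log2 ratio 2.21) and at P7 (1.69 times, log2 ratio 0.75), while at E15.5 the values nearly coincided (log2 ratio 0.01). The order of the 6 groups, from the highest, was P7 mutant, E13.5 mutant, P7 wild type, E13.5 wild type, and both genotypes at E15.5. Without values for single libraries, it cannot be said which neighbours in that order differ beyond their spread.

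At E13.5, 32 of 13507 genes with a mean of at least 1 FPKM over both genotypes had a log2 ratio as high, Slc7a11 included. Among the 4400 genes whose mean level was within 2-fold of its own, 8 did. The set was chosen with this difference known, so these ranks describe it and support nothing. At P7 the numbers were 244 of 14175 genes and 74 of 5587 genes of similar level. In the strains of the other tables Slc7a11 was nearly equal between genotypes, at 3.21 and 3.27 FPKM in Peril brain (log2 ratio 0.03) and at 0.0942 and 0.0947 FPKM in Fendrr lung.

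The other transporter of the group was not higher with Slc7a11. Slc7a5, which encodes the light chain LAT1 of the exchanger for large neutral amino acids, was lower in the mutant at E13.5, with 29.5 FPKM in wild type and 24.3 FPKM in linc-Brn1b-/- (log2 ratio -0.28). Its values were 29.2 and 28.2 FPKM at E15.5, 44.8 and 41.7 FPKM at P7, 38.6 and 42.9 FPKM in Peril brain, and 15.05 and 13.97 FPKM in Fendrr lung. Slc3a2, which encodes the heavy chain that both SLC7A11 and SLC7A5 need to reach the membrane, was at 32.5 and 28.1 FPKM at E13.5 (log2 ratio -0.21) and 47.5 and 43.0 FPKM at P7 (log2 ratio -0.14).

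The enzymes of amino acid synthesis pointed in opposite directions at E13.5. Asns, which makes asparagine from aspartate and glutamine, was at 12.3 FPKM in wild type against 16.0 FPKM in the mutant (1.31 times, log2 ratio 0.38). Psat1, which carries out the transamination step of serine synthesis, was at 122 FPKM in wild type against 85.9 FPKM in the mutant, 70.5% of wild type (log2 ratio -0.50). The enzymes before and after it in the same path were also lower in the mutant, Phgdh with 91.8 and 76.9 FPKM (log2 ratio -0.26) and Psph with 14.3 and 8.94 FPKM (log2 ratio -0.67).

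Away from E13.5 these enzymes differed less. Over all genes the log2 ratios also spread less at E15.5, in lung and in Peril brain. Their robust SD was 0.27 at E13.5, 0.07 at E15.5, 0.26 at P7, 0.14 in Fendrr lung and 0.16 in Peril brain. Asns was at 18.2 and 17.4 FPKM at E15.5, 46.3 and 45.0 FPKM at P7, 31.3 and 34.9 FPKM in Peril brain, and 33.6 and 33.2 FPKM in Fendrr lung. Psat1 was at 68.2 and 72.2 FPKM at E15.5, 44.3 and 38.7 FPKM at P7, 45.4 and 41.4 FPKM in Peril brain, and 127 and 126 FPKM in Fendrr lung, where it was the highest of the 10 genes. The log2 ratios of both genes lay between -0.19 and 0.16 in these 4 comparisons.

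Chac1 degrades glutathione and is among the most responsive ATF4 targets. It was at 2.86 FPKM in wild-type and 4.46 FPKM in linc-Brn1b-/- brain at P7, 1.56 times wild type (log2 ratio 0.62), the only other difference beyond 1.5-fold among genes of the group with a mean of at least 1 FPKM. Its earlier values were 0.792 and 0.987 FPKM at E13.5 and 1.56 and 1.42 FPKM at E15.5, so the mutant was higher, then lower, then higher. In Peril brain it was at 2.98 and 2.53 FPKM, and in Fendrr lung at 0.4198 and 0.2702 FPKM. Sesn2, a stress-induced brake on the growth kinase complex mTORC1, stayed between 1.62 and 4.19 FPKM in the linc-Brn1b groups and between 2.91 and 3.30 FPKM in the others, and its largest difference was a log2 ratio of -0.23 at E15.5.

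Counted together, 1 of the 7 genes that passed the 1 FPKM filter at E13.5 was higher by more than 1.5-fold (Slc7a11) and 0 were lower, beside 3.18% of all genes higher and 6.86% lower. The filter left out Atf3, Trib3 and Chac1. The median log2 ratio of the 7 was 0.01, beside 0.06 over all 13507 genes. Slc7a11, whose level here helped to choose the set, was the only gene of the group outside the middle 95% of all genes. At P7, 2 of 8 were higher (Slc7a11 and Chac1) and 0 lower, beside 3.43% and 3.96% of all genes, with a median of 0.07 against 0.01. This share of higher genes stood above the background, but it rests on 2 genes. Slc7a11 is 1 of them, and its level in the same strain at E13.5 helped to choose the set, so the share supports nothing. Chac1 is past the threshold by little (log2 ratio 0.62 against 0.58 for 1.5-fold).

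In the remaining comparisons no gene of the group was past 1.5-fold. At E15.5 this held for 7 of 7 genes past the filter, where 0.747% of all genes were past it in either direction and the median log2 ratio of the group was -0.05. The Peril brain had 0 of 8, beside 3.35% of all genes, and the Fendrr lung 0 of 7, beside 3.82%, with medians of 0.00 and -0.01. With backgrounds this low, a count of 0 among 7 or 8 genes is close to what the background would give.

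**Figure D3:**
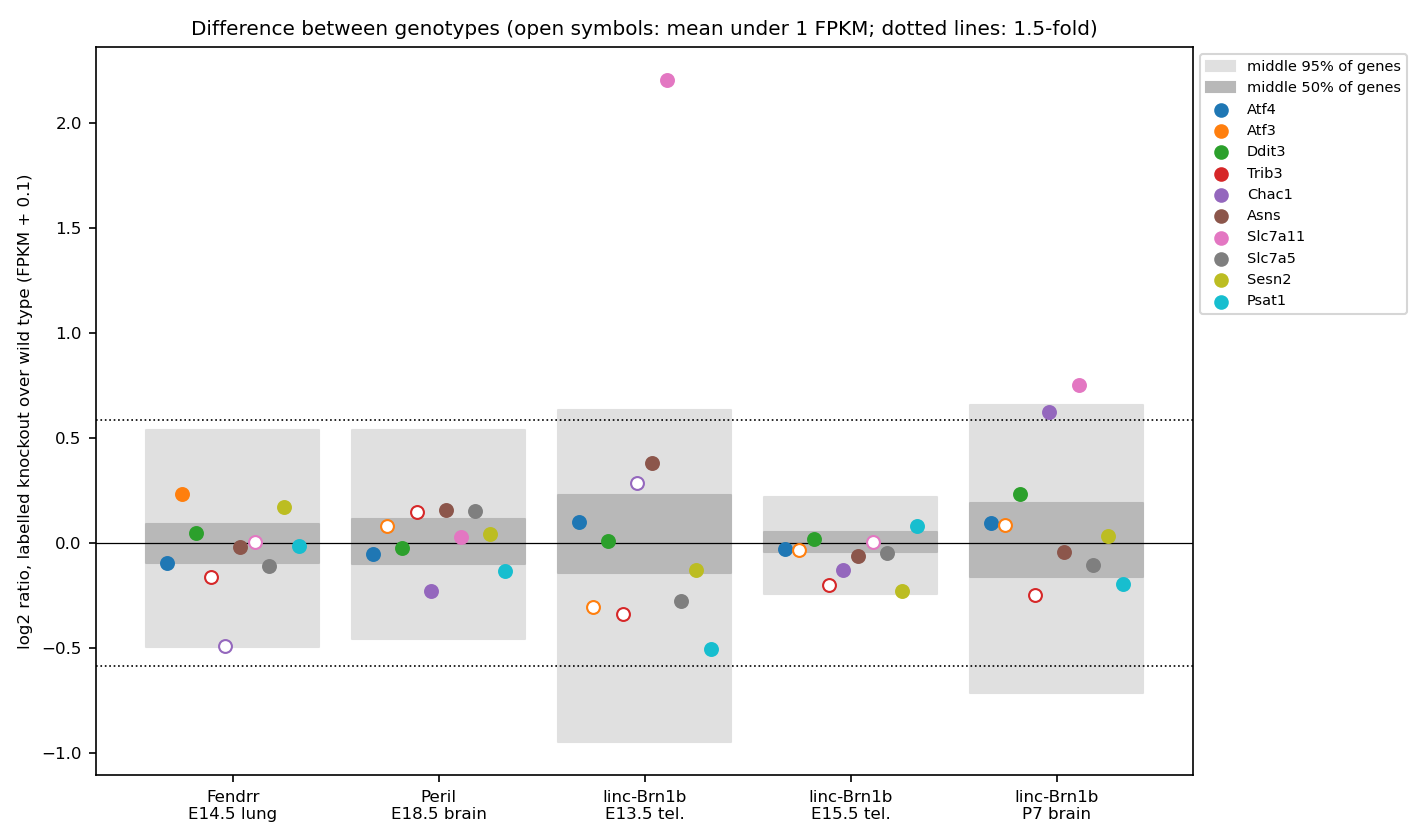
Log2 ratio of libraries labelled knockout over wild type (FPKM + 0.1) of the 10 genes in the 5 comparisons, beside the middle 50% (dark grey) and the middle 95% (light grey) of all genes with a mean of at least 1 FPKM. Open symbols mark genes under that mean, dotted lines mark 1.5-fold, and 1 value was available per group, so there are no error bars. Slc7a11 stands at 2.21 at E13.5 and at 0.75 at P7, and the other points lie inside the light bands.

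Ages were compared within each genotype of the linc-Brn1b strain. From E13.5 to E15.5 Slc7a11 was lower at the later age in both genotypes, to 18.8% of its earlier level in wild type (log2 ratio -2.15) and to 3.94% in the mutant (log2 ratio -4.35). From E15.5 telencephalon to P7 brain it was 22.4 times higher in wild type (log2 ratio 4.16) and 37.6 times higher in the mutant (log2 ratio 4.91). In wild type, 63 of 13539 genes had a log2 ratio as low in the first step, and 113 of 14152 one as high in the second. At E15.5 Slc7a11 was under 1 FPKM in both genotypes (0.379 and 0.381 FPKM). It passed the filter in both steps only through the other age, so these ranks are a description. The later step changes tissue as well as age, and Y-linked levels also differed between E13.5 and E15.5, so tissue and sex cannot be told apart from age.

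Psat1 was lower with age in wild type, with log2 ratios of -0.84 to E15.5 and -0.62 to P7, and in the mutant, with -0.25 and -0.90. Asns went the other way, with 0.57 and 1.34 in wild type and 0.12 and 1.36 in the mutant. Chac1 was also higher at each later age, with 0.89 and 0.84 in wild type and 0.48 and 1.59 in the mutant. Atf4 hardly differed between ages, with the 4 log2 ratios between -0.17 and 0.08.

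Between E15.5 and P7, 5 of the 8 genes past the filter were higher by more than 1.5-fold in wild type (Chac1, Asns, Slc7a11, Slc7a5 and Sesn2) and 1 was lower (Psat1), beside 25.9% and 30.3% of all genes. In the mutant 4 of 8 were higher and 1 lower, beside 26.8% and 30.5%, and Slc7a5 was at a log2 ratio of 0.56. Group medians were 0.73 and 0.94, against -0.11 over all genes in both genotypes. Sesn2 was 2.14 times higher in wild type and 2.58 times higher in the mutant, and Ddit3 was lower by less than 1.5-fold in both, at -0.37 and -0.15. Trib3 and Atf3 stayed under 1 FPKM at every age. Slc7a11 was under 1 FPKM at E15.5 in both genotypes and passed the filter only through P7. The counts and medians that include it are therefore a description.

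Between E13.5 and E15.5 the wild type had 1 of 8 genes higher (Chac1) and 2 lower (Slc7a11 and Psat1), beside 11.8% and 10.3% of all genes. The mutant had 0 higher and 1 lower (Slc7a11), beside 12.8% and 10.4%. Chac1 was under 1 FPKM at E13.5, and Slc7a11 at E15.5, so each passed the filter only through the other age. Group medians were 0.03 and 0.04, against 0.01 and -0.03 over all genes.

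The rest of the pathway was read from lists of its known genes. The counts below concern genes with a mean of at least 1 FPKM, and stand beside the shares of all genes past 1.5-fold given above, at which 0 or 1 gene of a short list is close to the background. Among 12 genes for the eIF2 kinases, eIF2 and its exchange factor, all of them past the filter, 0 were past 1.5-fold in any of the 5 genotype comparisons. The amino acid sensor Eif2ak4 (GCN2) was at 8.25 and 10.5 FPKM at E13.5 (log2 ratio 0.35), the endoplasmic reticulum sensor Eif2ak3 (PERK) at 9.38 and 10.7 FPKM (log2 ratio 0.19), and the phosphatase subunit Ppp1r15a at 5.26 and 5.91 FPKM (log2 ratio 0.17). The partners Atf5 and Cebpg were within 1.5-fold too, at log2 ratios of -0.13 and 0.16, and of the 6 partner genes, 3 to 6 of which passed the filter in a comparison, 0 were past it.

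Of 10 genes for amino acid synthesis and one-carbon metabolism, Psph was lower at E13.5 and Pycr1, an enzyme of proline synthesis, at P7 (2.66 FPKM in wild type against 1.60 FPKM in the mutant, log2 ratio -0.70), and no others passed 1.5-fold. The median log2 ratio of this list at E13.5 was -0.20. Of 13 genes for aminoacyl-tRNA synthetases and the tRNA exporter, 1 was past 1.5-fold, Iars, the isoleucyl-tRNA synthetase, higher at P7 (9.05 and 14.8 FPKM, log2 ratio 0.70). Of 7 other amino acid transporter genes, 6 or 7 passed the filter and 0 were past 1.5-fold in any of the 5 comparisons. Of 11 further stress and growth outputs, 8 passed the filter in each comparison and 1 was past 1.5-fold, Eif4ebp1, an ATF4 target that restrains cap-dependent translation, lower at E13.5 (6.12 and 3.79 FPKM, log2 ratio -0.68).

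Over 9 lists with 88 genes in all, which include the neighbouring unfolded protein, NRF2 and p53 programmes, 80 genes passed the filter at E13.5. Of these, 4 (5%) were past 1.5-fold, 1 of them higher, beside the 3.18% of all genes given above, and 3 lower, beside 6.86%. The higher gene, the p53 target Pmaip1, passed the filter only through the mutant. At P7 the share was 3 of 82 (3.66%), beside 7.39%. In Peril brain it was also 3 of 82, beside 3.35% of all genes past 1.5-fold in either direction. All 3 of these were lower, beside 1.40% of all genes lower. At E15.5 there were 0 of 79, beside 0.747%, and in Fendrr lung 0 of 83, beside 3.82%.

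**Figure D4:**
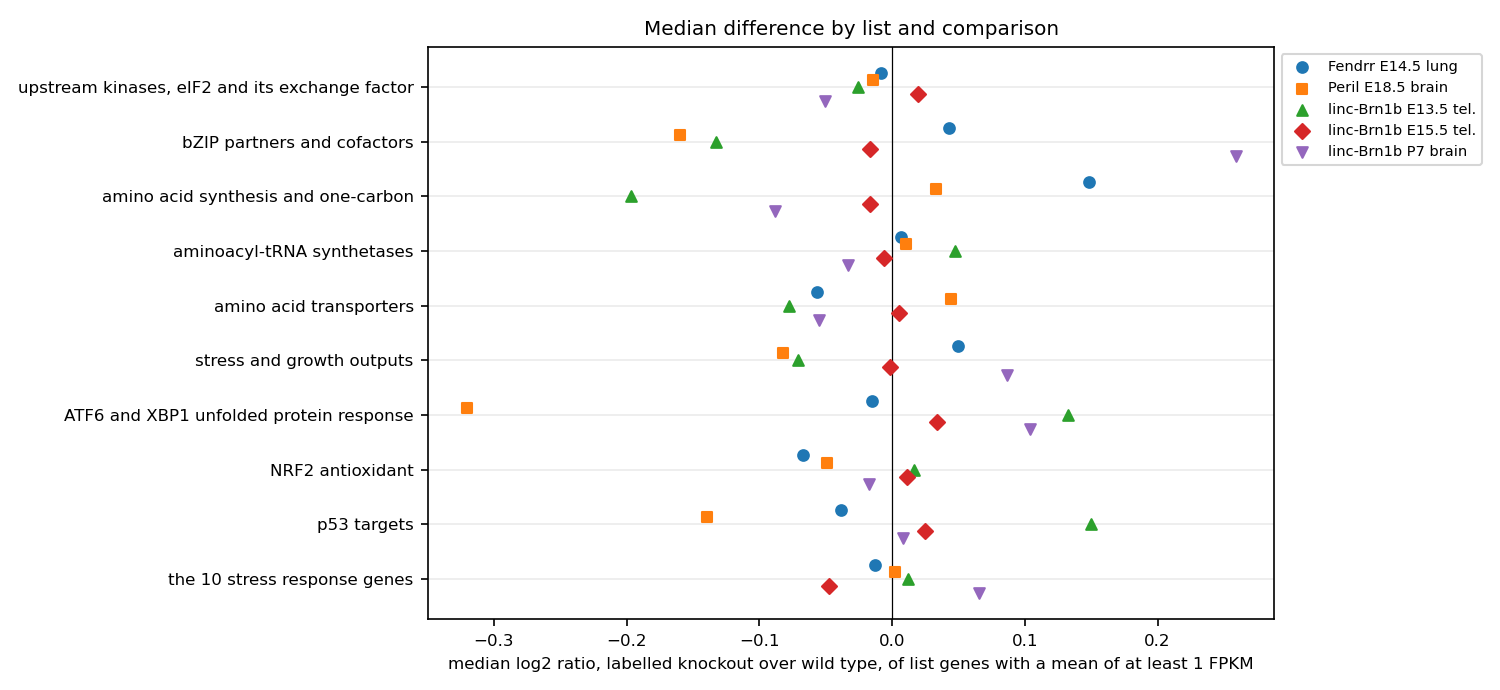
Median log2 ratio of libraries labelled knockout over wild type, on the horizontal axis, for the genes of each list with a mean of at least 1 FPKM, by comparison (symbols). Medians of the 10 stress response genes lie between -0.05 and 0.07, and the lowest of all points, -0.32, is that of the ATF6 and XBP1 list in Peril brain.

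With age the pathway genes included some past 1.5-fold in each direction. From E15.5 to P7, 12 of 82 list genes were higher and 22 lower in wild type, beside 25.9% and 30.3% of all genes, and 10 and 24 in the mutant, beside 26.8% and 30.5%. Of the 7 other amino acid transporter genes, 3 were higher and 2 lower by more than 1.5-fold in wild type and in the mutant. Those higher in wild type included Slc7a3, which carries cationic amino acids (0.901 FPKM at E15.5 and 10.3 FPKM at P7) and passed the filter only through P7. Another was Slc6a9, a glycine transporter (2.38 and 14.8 FPKM). The proline enzymes Aldh18a1 (35.1 and 8.27 FPKM) and Pycr1 (10.6 and 2.66 FPKM) were lower at P7, as was the ATF4 partner Cebpg (20.6 and 4.58 FPKM).

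Markers of other cell types differed between the same samples. Of all genes, 3.18% were higher and 6.86% lower by more than 1.5-fold at E13.5. A count of 0 or 1 in a short marker list is close to that background. At E13.5 the 9 markers of meninges and fibroblasts summed to 102 FPKM in wild type and 53.1 FPKM in linc-Brn1b-/-, with 8 of 9 lower by more than 1.5-fold, among them Slc6a13 (2.37 and 0.7998 FPKM) and Lum (11.99 and 4.80 FPKM). This is the opposite direction to Slc7a11. Endothelial markers summed to 106 and 71.0 FPKM (2 of 8 lower) and choroid plexus markers to 165 and 208 FPKM (0 of 5 past 1.5-fold). Erythroid markers summed to 312 and 185 FPKM (1 of 3 lower), and microglial markers to 21.3 and 15.6 FPKM (3 of 6 lower and 1 higher). Astrocyte markers summed to 51.0 and 55.0 FPKM (1 of 4 lower), with S100b under 0.1 FPKM in both genotypes and Gfap under it in the mutant.

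At E15.5, where Slc7a11 was lowest, the meningeal markers summed to 6.75 FPKM in wild type against 5.39 FPKM in the mutant, with Slc6a13 and Aldh1a2 under 0.1 FPKM in both. Choroid plexus markers summed to 244 and 5.61 FPKM there, yet Slc7a11 was at 0.379 and 0.381 FPKM. At P7, where Slc7a11 was highest, meningeal markers summed to 564 and 519 FPKM (3 of 9 lower in the mutant). The shares of all genes past 1.5-fold at P7 were 3.43% higher and 3.96% lower. Astrocyte markers summed to 465 and 419 FPKM (1 of 7 higher and 1 lower, median log2 ratio -0.45). Choroid plexus markers summed to 459 and 313 FPKM (2 of 6 lower), and microglial markers to 67.6 and 84.1 FPKM (2 of 8 higher). Markers of radial glia and intermediate progenitors summed to 1043 and 590.4 FPKM there (3 of 7 lower in the mutant). Across ages, then, Slc7a11 was low where meningeal markers were low and high where they were high, while between genotypes it did not follow them. The part of tissue composition in the Slc7a11 levels was not tested, and in whole tissue fewer cells of a type and less RNA per cell cannot be told apart.

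**Figure D5:**
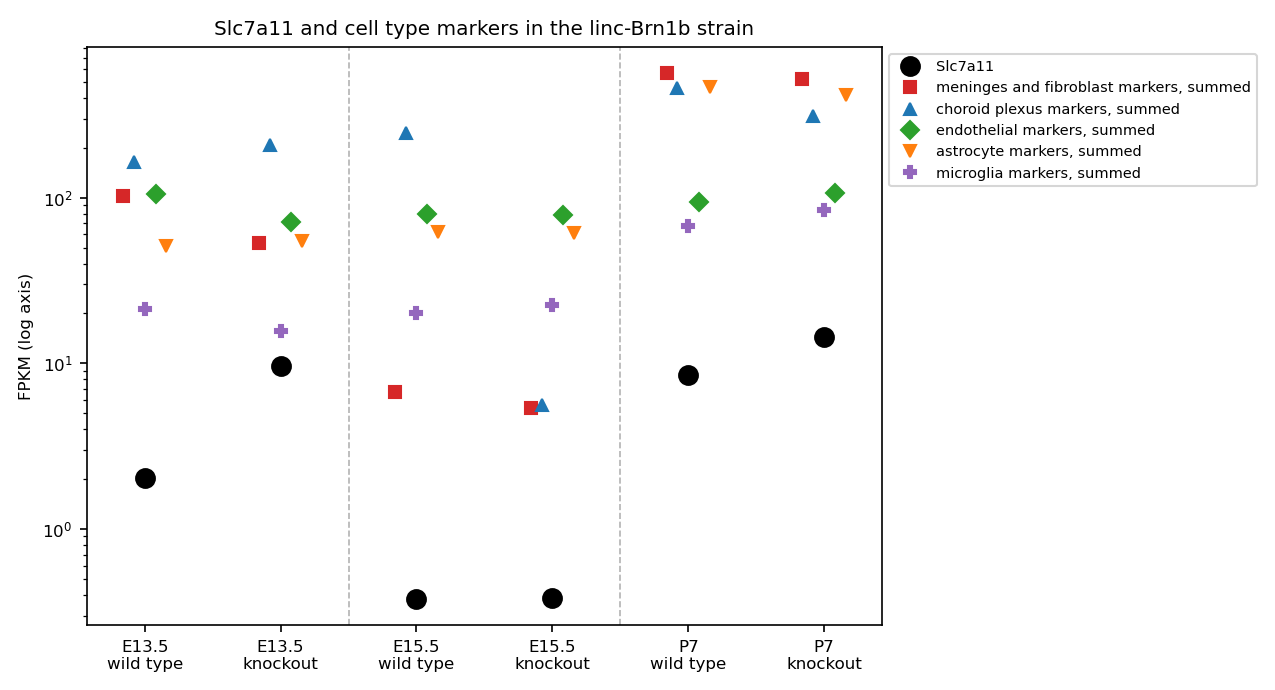
FPKM on a log axis of Slc7a11 (black) and of the summed markers of 5 cell types in the 6 groups of the linc-Brn1b strain, with 1 deposited value per group and symbols shifted sideways where they would overlap. Between genotypes at E13.5 Slc7a11 goes from 2.02 to 9.68 FPKM while meningeal markers go from 102 to 53.1 FPKM, and at E15.5 both are at their lowest.

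In the other tissues the markers also differed between genotypes while the stress genes past the filter were within 1.5-fold. Cardiac muscle markers summed to 311 FPKM in wild-type and 947 FPKM in Fendrr-/- lung, and erythroid markers to 2987 and 1615 FPKM. In Peril brain choroid plexus markers summed to 579 FPKM in the libraries labelled knockout, against 840 FPKM in wild type, and meningeal markers to 399 against 577 FPKM.

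The genes whose log2 levels followed Slc7a11 most closely over the 6 linc-Brn1b groups, among 14097 compared, were AK031819 (Pearson r = 0.999), Esyt2 (r = 0.999) and Hhipl1 (r = 0.993). These correlations over 6 points describe the order and spacing of the groups, which share ages and libraries. The ranges were much narrower than that of Slc7a11, with AK031819 between 5.84 and 8.40 FPKM, Esyt2 between 8.85 and 11.4 FPKM and Hhipl1 between 0.741 and 1.52 FPKM.

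Some of the genes share their locus with another entry of the tables. Whether counting used strand is not given in the sources used here, so reads of overlapping genes and of antisense partners cannot be told apart. Ddit3 overlaps Mars, the methionyl-tRNA synthetase gene on the opposite strand, which was at 19.6 to 31.7 FPKM. Slc7a5 shares its locus with linc-Slc7a5-AS, which was at 18.45 FPKM in wild-type and 10.22 FPKM in Fendrr-/- lung, above or near Slc7a5 itself (15.05 and 13.97 FPKM). In Peril brain linc-Slc7a5-AS was at 4.16 FPKM in the libraries labelled knockout and 8.34 FPKM in wild type, whereas Slc7a5 was at 42.9 and 38.6 FPKM. In the linc-Brn1b table it was at most 0.278 FPKM. A further lincRNA entry, linc-Klhdc4, was at 2.49 and 1.40 FPKM in lung and 1.10 and 0.468 FPKM in Peril brain. Entries at the loci of Atf4, Asns and Sesn2 were under 1 FPKM, and Slc7a11, Psat1, Atf3, Trib3 and Chac1 shared a locus with no other entry.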

How the data were processed

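mRNA-Seq libraries were prepared from total RNA with a TruSeq RNA kit. The authors used Tophat2 for alignment to mm9, Cufflinks 2.0.2 for transcript assembly, and Cuffdiff2 at its defaults for expression. The FPKM values the authors deposited are pooled estimates, 1 per group, in 3 tables normalised separately (0 columns of values per sample). Columns with their fold changes, test statistics, p-values and q-values were not used. In the linc-Brn1b table, which value column holds which group was settled from 24 repeated columns, which differed by 0 FPKM. The Fendrr and Peril tables repeat no columns, and the same order was assumed for them.

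With 1 value per group no test, error or interval could be computed. Comparisons stayed within a table, as log2((second + 0.1)/(first + 0.1)) of FPKM, for genes with a mean of at least 1 FPKM over the groups compared. Genes past 1.5-fold were counted, beside the same share of all such genes. Only this counting step was checked on simulated data, and whether any difference exceeds the spread between animals was not tested. Python 3.11.15, pandas 2.3.3, numpy 2.4.6 and matplotlib 3.10.9 were used. Alternatives were pseudocounts of 1 and 0.01 FPKM, no filter, 2-fold, and centring on the median of all genes.

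The genes and lists were chosen with earlier results of these data known. Named are the 10 genes, list genes past 1.5-fold in a genotype comparison (up to 3 highest and 3 lowest in each list), checks and markers, and the 3 genes most correlated with Slc7a11. Chosen after their values were seen are the entries sharing a locus, Phgdh, Slc3a2, the 3 upstream genes, Atf5, Cebpg, the NRF2 genes within 1.5-fold, and the list genes named for the age steps. Slc7a5 has no promoter window here. One planned tissue marker is not reported here.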

Additional observations from a re-analysis of the deposited data

How the results depend on the processing

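Of 126 counts and medians recomputed under the 5 alternatives, 117 stayed within 1.5 times (counts) or within 1 robust SD of all genes (medians) and 9 moved further. Among the 117, genes higher from E15.5 to P7 in the mutant went from 4 to 6 without the filter and to 5 with centring, and in wild type from 5 to 6 without the filter. Of 36 recomputed medians, 6 within 0.04 of 0 took the other sign, the lowest at -0.11 (wild type, E13.5 to E15.5, without the filter). With a pseudocount of 1 FPKM, the genes higher at P7 in linc-Brn1b-/- went from 2 to 1 (Chac1 was lost) and those higher from E13.5 to E15.5 in wild type from 1 to 0. At 2-fold, the same counts were 0 and 0, those lower from E13.5 to E15.5 in wild type went from 2 to 1, those higher from E15.5 to P7 in wild type from 5 to 3, and those lower in that step from 1 to 0 in wild type and in the mutant. Centring on the median of all genes also took the wild-type count lower at P7 from 1 to 0. Of 207 single-gene log2 ratios, 6 moved by more than the robust SD of all genes, all with a pseudocount of 1 FPKM, 5 of them of Slc7a11 (1.82 between genotypes at E13.5). No paired analysis was possible because the tables hold 1 value per group, and for the same reason no library could be left out. What the depth would allow to be detected is unknown.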

Other observations

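The neighbouring stress programme with the most genes past 1.5-fold in 1 comparison was the endoplasmic reticulum list in Peril brain. There, 3 of 11 genes of the ATF6 and XBP1 list were lower by more than 1.5-fold in the libraries labelled knockout, beside 1.40% of all genes lower. They were the chaperone Hspa5 (150.8 and 99.4 FPKM), the transcription factor Xbp1 (49.3 and 29.9 FPKM) and Sdf2l1 (5.87 and 3.85 FPKM), a component of the chaperone network. The median log2 ratio of the list was -0.32. Ddit3, which endoplasmic reticulum stress also induces, was at 11.4 and 11.3 FPKM in the same samples. None of these differences was tested, and choroid plexus and meningeal markers were lower in the same libraries.

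The NRF2 list, which shares Slc7a11 as a known target, had 9 or 10 of its 10 genes past the filter and 0 past 1.5-fold in any genotype comparison. At E13.5 its median log2 ratio was 0.02, with Gclm at 12.2 and 12.1 FPKM, Gclc at 16.0 and 18.8 FPKM, Txnrd1 at 83.8 and 84.7 FPKM, and Hmox1, which encodes heme oxygenase, at 5.73 and 3.85 FPKM. Of 8 p53 targets, Pmaip1 was higher (0.751 and 1.34 FPKM) and Bax lower (71.0 and 46.4 FPKM) in linc-Brn1b-/- telencephalon at E13.5. Of all genes, 3.18% were higher and 6.86% lower there. Pmaip1 was under 1 FPKM in wild type and passed the filter only through the mutant, so its difference is a description. Trp53inp1 was lower at P7 (6.49 and 3.98 FPKM), beside 3.96% of all genes lower.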
